A study of Mus musculus with 6 samples.

Results

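The genes described here encode the bone morphogenetic protein (BMP) and transforming growth factor beta (TGF-beta) pathway: ligands, carriers, antagonists, receptors, SMAD proteins and classic targets. They were chosen by gene symbol, with Gdf15 left out, and a gene was kept where it had at least 10 counts in 3 or more of the 6 libraries. Of 71 genes whose symbols matched, 54 were kept, out of 55487 genes counted in all. The 17 dropped genes had at most 17 counts in any library. They were Inhbb, Inhbc, Inhbe, Bmpr1b, Bmp10, Bmp15, Nog, Chrdl1, Chrdl2, Gdf1, Gdf2, Gdf3, Gdf5, Gdf6, Gdf7, Gdf9 and Gdf10. The rule uses gene symbols and a count minimum, and no difference between groups. Grem1, Bmp5, Fst and Ltbp2 missed 10 counts in at least 1 library. Ltbp2 had 10 counts in all 3 mutant libraries and in 1 control library, so it was kept through the group where it was high, and Bmp5 was kept through the controls.

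The samples were colonic crypt cells isolated from C57BL/6 mice that were 4 weeks old, with polyadenylated RNA sequenced from each mouse group in 3 libraries. Mutants had the genotype M14(f/f);Villin-Cre and controls the genotype M14(f/f), so both carried the floxed alleles and mutants alone carried Cre. M14 is read here as Mettl14, a subunit of the enzyme complex that writes N6-methyladenosine on RNA. Villin-Cre acts in the gut epithelium, so other cells in a crypt preparation keep the gene, and this design cannot tell losing M14 apart from carrying Cre. The study design names 3 pairs of mice, but no label ties a mutant library to its paired control, so the fit is unpaired and its p-values measure the spread between these libraries.

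BMP and TGF-beta family ligands are secreted dimers that bind pairs of type I and type II receptor kinases. BMP receptors phosphorylate SMAD1, SMAD5 and SMAD9, TGF-beta and activin receptors phosphorylate SMAD2 and SMAD3, and both groups act with the shared partner SMAD4. In the intestine BMP signals are strongest towards the surface and antagonists from stromal cells hold them low at the crypt base, while TGF-beta is made in a latent form that must be released before it can signal.

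Library totals ran from 24181631 to 34842591 counts in mutants and from 32165546 to 35183636 in controls. A ribosomal RNA gene held 12.9%, 7.44% and 5.16% of these counts in mutant 1, 2 and 3, against 7.76% to 8.90% in controls. Leaving that gene out of the fit changed no member's call. Levels are given as CPM, the count scaled to the TMM-adjusted library size. Where the shallowest library had no count for a gene, its level could still be as high as 0.124 CPM, for counting error alone. Mettl14 had 13.99, 13.8 and 10.5 CPM in mutants, against 26.2, 20.9 and 22.0 CPM in controls (log2 fold change -0.85, SE 0.13, adjusted p = 6.22e-04). All 9 epithelial markers were detected, with a summed level of 9129 to 11196.5 CPM in mutants and 11983 to 13363 CPM in controls, against 102 to 129 CPM in mutants and 230.4 to 273.9 CPM in controls for 9 fibroblast markers. Of the epithelial markers Epcam, Krt8, Krt20 and Vil1 fell, Cdh1 rose and 4 did not pass. Mutant libraries differed from each other in sex-linked genes: Xist had 16870, 1328 and 55 counts in mutant 1, 2 and 3, against 44 to 55 in controls. The Y-linked gene Ddx3y had 14, 949 and 1615 counts in the same mutants, against 1774 to 1969 in controls. Mutant 2 thus held both, and whether libraries share RNA was not tested. Results without mutant 1, and without mutant 1 and mutant 2, are therefore given below.

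Of the 54 genes 16 rose in mutants, 12 fell and 26 did not pass an adjusted p of 0.05 in edgeR. Over all 18539 genes tested the share that passed was 46.3%, with 23.5% higher and 22.8% lower, so the members' share of 51.9% was close to the background. For 35 of the 54 every mutant library lay on one side of every control, or 64.8%, where the background was 56.9%. The median log2 fold change of the members was 0.05, against 0.01 over all genes tested. By at least 2-fold, 8 members rose and 3 fell (background 16.6% in either direction). In bulk RNA, fewer cells of a type and less RNA per cell cannot be told apart.

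**Figure D1:**
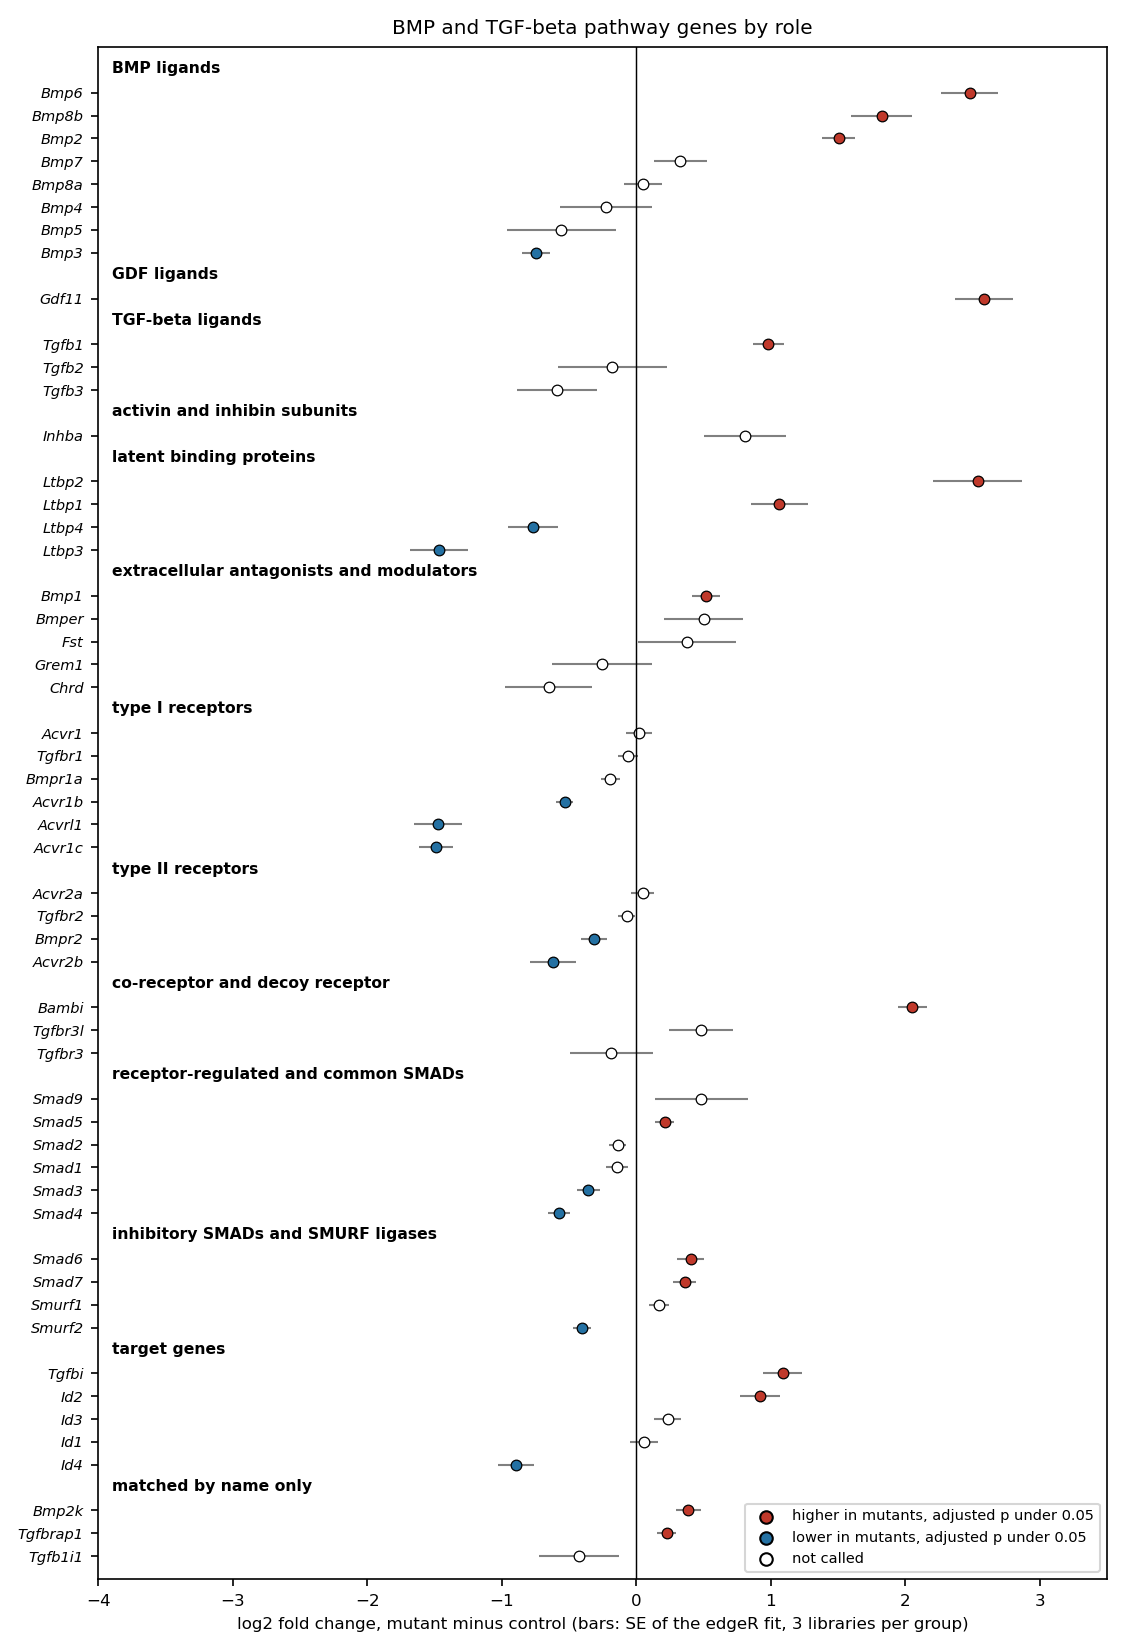
Log2 fold change, mutant minus control, of 53 of the 54 pathway genes grouped by role, with the SE of the edgeR fit (3 libraries per group). Filled points passed an adjusted p of 0.05: 16 lie on the higher side and 12 on the lower side, and the type I and type II receptors that passed all lie on the lower side. Over all genes tested 23.5% passed on the higher side and 22.8% on the lower.

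Ligands of the BMP branch moved apart. Of 8 BMP ligand genes 3 rose, 1 fell and 4 did not pass. Thus 50% passed, close to the background of 46.3% (23.5% higher and 22.8% lower), and these are few genes. Bmp2 (chromosome 2, 133552159 to 133562885, plus strand, GRCm38), a BMP made by the upper crypt epithelium, had 79.8, 95.9 and 98.6 CPM in mutants, against 37.5, 27.2 and 32.0 CPM in controls. Every mutant library stood above every control, with means of 91.4 ± 10.2 CPM in mutants and 32.2 ± 5.17 CPM in controls (SD, n = 3 each). Its log2 fold change was 1.505 (SE 0.12, adjusted p = 1.36e-05). Bmp3 encodes an atypical family member that counteracts other BMPs. It fell, with 51.3, 38.1 and 41.2 CPM in mutants, against 71.0, 71.9 and 76.2 CPM in controls (log2 fold change -0.75, SE 0.11, adjusted p = 3.42e-04). Among all members Bmp2 ranked 2nd in level per kilobase in mutants and 10th in controls.

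Bmp6 (chromosome 13, 38345107 to 38500302, plus strand), a BMP best known from iron regulation in the liver, stood at 6.07, 5.36 and 4.43 CPM in mutants and at 0.856, 1.04 and 0.936 CPM in controls. It rose, by 2.48 on the log2 scale (SE 0.21, adjusted p = 1.64e-05). Bmp8b had 7.58, 10.1 and 13.7 CPM in mutants, against 3.40, 2.55 and 2.94 CPM in controls. That difference was 1.82 on the log2 scale (SE 0.23, adjusted p = 1.52e-04), and the mutant libraries spread widely although none reached down to the controls. Its neighbour on chromosome 4, Bmp8a, was level between groups, at 10.7 ± 1.94 CPM in mutants and 10.3 ± 0.678 CPM in controls (adjusted p = 0.797). Bmp8a and Bmp8b are close paralogues: 8.74% of the 50-base stretches in Bmp8a transcripts also occur in Bmp8b transcripts, so reads there could be lost to both and their levels are uncertain to that extent. Bmp4, the main BMP of the stroma under the crypts, lay at 1.19 ± 0.267 CPM in mutants and 1.39 ± 0.592 CPM in controls and did not pass (adjusted p = 0.624). Neither did Bmp7 (adjusted p = 0.200) nor Bmp5, which was under 1 CPM.

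With all libraries the largest rise of any member was that of Gdf11 (chromosome 10, 128882295 to 128891718, minus strand), a ligand that signals through activin-type receptors and is known for patterning the embryonic axis. Mutants held 14.5, 10.6 and 8.83 CPM, against 1.74, 2.17 and 1.71 CPM in controls. The lowest mutant was thus far above the highest control, and the difference was 2.59 on the log2 scale (SE 0.22, adjusted p = 1.45e-05). It was 2.36 without mutant 1 (adjusted p = 2.14e-05), where Ltbp2 had the larger value, 2.64. Inhba, which encodes the activin A subunit, stood at 0.863 ± 0.0902 CPM in mutants and 0.494 ± 0.0822 CPM in controls, without overlap but also without a call (adjusted p = 0.0526).

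Of the 3 TGF-beta genes Tgfb1 alone passed. Tgfb1 (chromosome 7, 25687002 to 25705077, plus strand), the main immune-regulating TGF-beta, had 14.3, 14.3 and 13.9 CPM in mutants, against 7.99, 6.50 and 7.07 CPM in controls. Mutant libraries were nearly equal to each other and all lay above the controls (log2 fold change 0.98, SE 0.11, adjusted p = 1.09e-04). Tgfb3 was at 1.09 ± 0.196 CPM in mutants and 1.64 ± 0.519 CPM in controls (adjusted p = 0.135), and Tgfb2 averaged under 1 CPM in both groups. Macrophage and dendritic cell markers, cells that also make TGF-beta 1, moved in the same libraries. Of 9 such markers 8 rose and 1 fell, their summed level was 40.3 to 63.0 CPM in mutants and 17.4 to 23.6 CPM in controls, and none was at 0 in all libraries. The one that fell was C1qa (log2 fold change -1.43), while its relatives C1qb and C1qc rose (1.75 and 1.98). Of 4 pan-leukocyte markers 3 rose, with a sum of 23.2 to 33.3 CPM in mutants and 13.3 to 15.6 CPM in controls. Ptprc, the most abundant of the 4, did not pass, at 10.1 CPM in mutants and 8.42 CPM in controls (adjusted p = 0.246). The part of these cells in the rise of Tgfb1 was not tested.

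**Figure D2:**
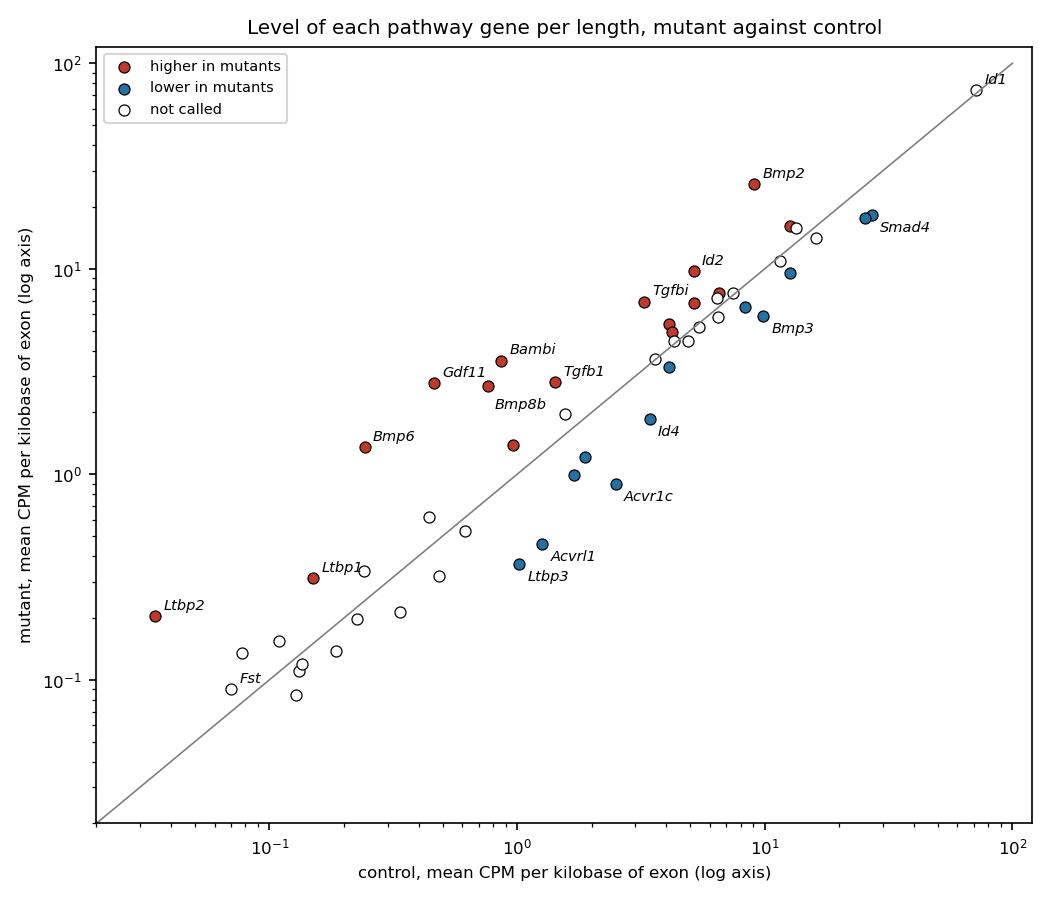
Mean level of 53 of the 54 genes per kilobase of exon in mutants (vertical, log axis) against controls (horizontal, log axis); the line marks equal levels. Id1 had the highest level in both groups, 74.1 CPM per kilobase in mutants and 71.2 CPM per kilobase in controls, and Bmp2, Bmp6, Gdf11, Bambi and Ltbp2 lie well above the line.

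Latent TGF-beta binding proteins (LTBPs) hold the latent cytokine in the matrix, except LTBP2, which does not bind it and attaches to fibrillin fibres. Ltbp1 and Ltbp2 passed on the higher side and Ltbp3 and Ltbp4 on the lower, with Ltbp2 kept by the count minimum through the mutants. Ltbp1 had 2.74, 3.36 and 3.88 CPM in mutants, against 1.51, 1.54 and 1.74 CPM in controls (log2 fold change 1.06, SE 0.21, adjusted p = 0.00259). Ltbp2 had 1.39, 2.12 and 1.48 CPM in mutants, against 0.228, 0.267 and 0.355 CPM in controls (log2 fold change 2.54, SE 0.33, adjusted p = 2.13e-04), a control level resting on 8 to 11 counts a library. Neither gene overlapped between groups. Ltbp3 fell, with 2.90, 2.76 and 4.29 CPM in mutants, against 7.88, 8.46 and 11.5 CPM in controls (log2 fold change -1.47, SE 0.22, adjusted p = 4.62e-04). Ltbp4 fell too, to 6.42 ± 1.35 CPM in mutants, against 11.01 ± 2.08 CPM in controls (log2 fold change -0.77, SE 0.19, adjusted p = 0.00791). Its call was lost without mutant 1 and mutant 2, where the log2 fold change was -0.51 (adjusted p = 0.107).

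Some fibroblast markers moved alongside the falling LTBP genes. Of 9 markers 5 fell, none rose and 4 did not pass, with the summed levels given above, and none was at 0 in all libraries. Col3a1, the most abundant of them, averaged 45.3 CPM in mutants and 111 CPM in controls (log2 fold change -1.29). The others that fell were Col1a1, Col1a2, Col6a1 and Dcn. Pdgfra and Thy1 were level (log2 fold changes of 0.11 and -0.004), and Lum and Pdpn leaned lower without passing (-0.91 and -0.68). Of 8 smooth muscle and pericyte markers 4 fell and 1 rose, and their sum was 81.8 to 86.6 CPM in mutants and 85.0 to 94.1 CPM in controls. The part of these cells in the fall of Ltbp3 and Ltbp4 was not tested.

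Other pathway genes were read from a fixed list of 66, of which 52 could be tested. Of these 15 rose and 18 fell, or 63.5%, where the background was 46.3% (23.5% higher and 22.8% lower), and their median log2 fold change was -0.08. The list was drawn up with earlier results of these data known, so an excess over the background cannot be read from it. With library totals in place of TMM scaling the split was 16 higher and 10 lower, where the background was 26.3% and 18.3% (44.6% in all). Among its ligand carriers and activators 5 of 7 rose and 1 fell with TMM scaling (85.7% called, background 46.3%). Itgb8 (chromosome 12, 119158022 to 119238802, minus strand), the beta chain of an integrin that releases active TGF-beta from its latent complex, showed the largest difference of these. It had 39.7, 31.7 and 36.6 CPM in mutants, against 0.542, 0.772 and 0.839 CPM in controls. The difference on the log2 scale was 5.65 (SE 0.16, adjusted p = 3.14e-08), and Itgb8 was under 1 CPM in every control library. Itgav, the alpha chain that pairs with it, had 124, 136 and 144 CPM in mutants, against 58.0, 65.7 and 61.0 CPM in controls (log2 fold change 1.13, SE 0.082, adjusted p = 6.63e-06). Itgb6, the beta chain of the other main TGF-beta-releasing integrin, rose to 54.1 ± 9.34 CPM in mutants, against 35.5 ± 3.79 CPM in controls (log2 fold change 0.61, adjusted p = 0.00372). Thbs1 encodes thrombospondin 1, a matrix activator of TGF-beta, and Furin the protease that cuts the ligand precursors. Both rose, by log2 fold changes of 0.46 (adjusted p = 5.36e-04) and 0.35 (adjusted p = 0.00220). Fbn1, the fibrillin that anchors LTBPs, fell to 6.00 ± 0.486 CPM in mutants, against 18.1 ± 1.503 CPM in controls (log2 fold change -1.59, SE 0.11, adjusted p = 6.39e-06).

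**Figure D3:**
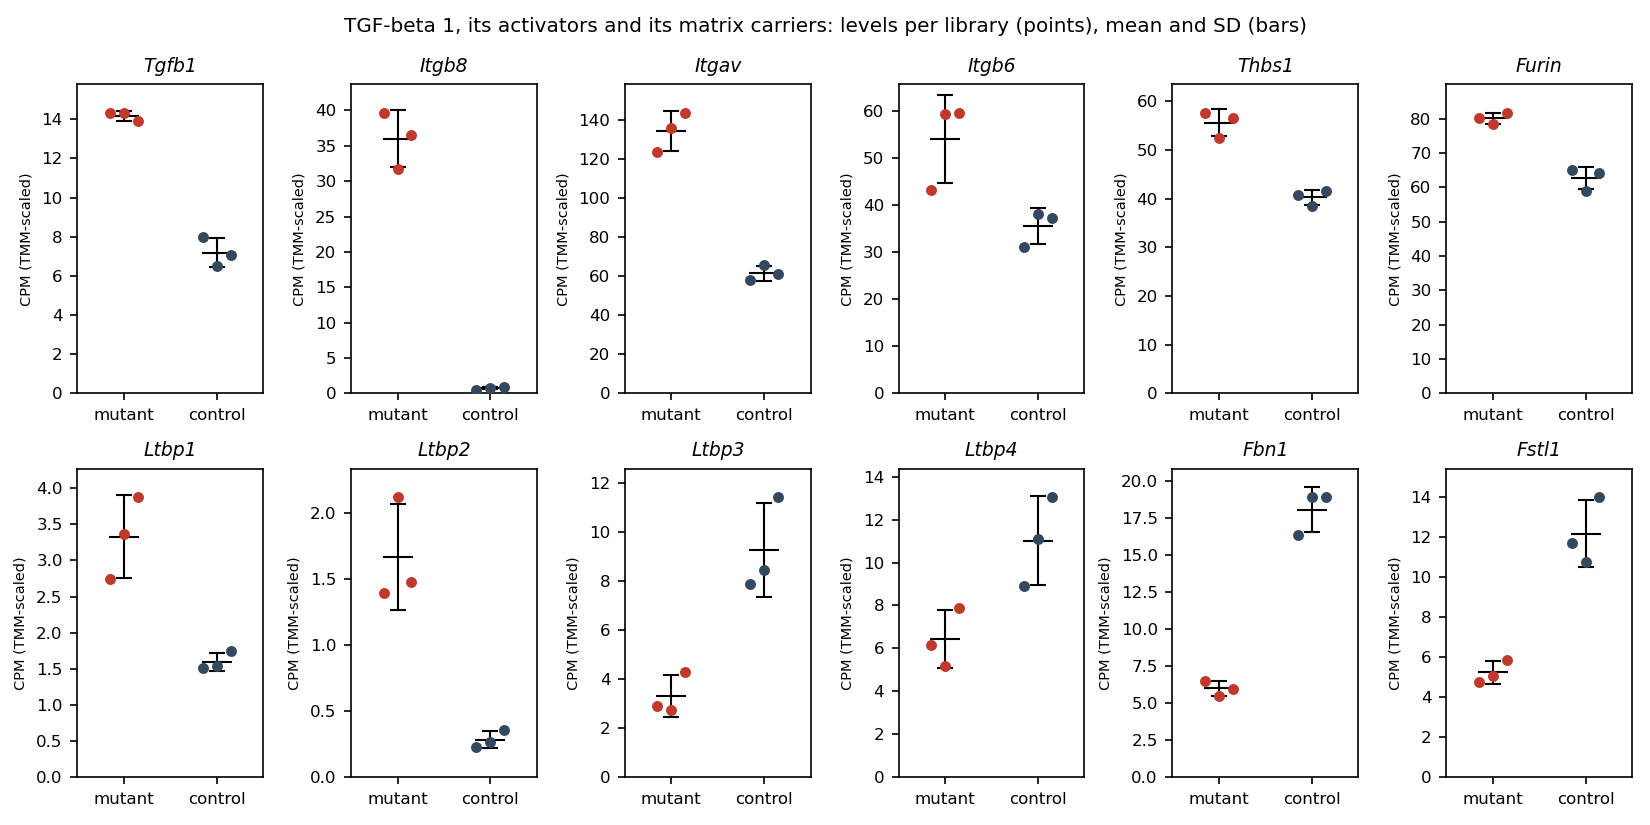
CPM of Tgfb1, its activators, LTBP genes, Fbn1 and Fstl1 in each of 3 mutant and 3 control libraries (points), with mean and SD (bars); each panel has its own axis from 0. Itgb8 shows 31.7 to 39.7 CPM in mutants and 0.542 to 0.839 CPM in controls, and Ltbp1 and Ltbp2 lie on the opposite side from Ltbp3 and Ltbp4.

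Of 6 member genes for extracellular antagonists and modulators 1 passed (16.7%, background 46.3%). That was Bmp1, which encodes a protease that frees BMPs by cutting chordin, and it had the highest level per kilobase of the 6. It had 11.9, 11.9 and 13.0 CPM in mutants, against 8.56, 8.31 and 8.81 CPM in controls (log2 fold change 0.52, SE 0.10, adjusted p = 0.00283). The chordin gene Chrd stood at 1.33 ± 0.160 CPM in mutants and 2.10 ± 0.939 CPM in controls, with control 2 at 3.18 CPM, and did not pass (adjusted p = 0.126). Grem1 and Fst, which encode stromal BMP and activin antagonists, averaged under 1 CPM in both groups, and Bmper was at 1.63 ± 0.441 CPM in mutants and 1.16 ± 0.307 CPM in controls (adjusted p = 0.193). Of 8 antagonist genes tested in the fixed list of other genes 1 rose, 4 fell and 3 did not pass (62.5% called, background 46.3%). Twsg1, which encodes a chordin-binding BMP modulator, had the highest level of these per kilobase, at 35.2 ± 2.69 CPM in mutants and 36.1 ± 1.38 CPM in controls (adjusted p = 0.703). The follistatin relative Fstl1 had 4.79, 5.08 and 5.88 CPM in mutants, against 11.7, 10.8 and 14.04 CPM in controls (log2 fold change -1.21, SE 0.15, adjusted p = 1.34e-04). Fstl3, Nbl1 and Htra1 fell as well, by log2 fold changes of -1.56, -0.49 and -0.83 (adjusted p of 0.00146, 0.0136 and 0.0374). Without mutant 1 and mutant 2 Nbl1 and Htra1 lost their calls (adjusted p of 0.0911 and 0.263). Nbl1 also lost it without control 3 (adjusted p = 0.0614), and Htra1 without mutant 1, mutant 2, control 2 or control 3 (adjusted p of 0.0942, 0.0689, 0.0936 and 0.113) and with library totals only (adjusted p = 0.0581). Sost, which encodes sclerostin, an inhibitor of Wnt signals, had 49, 64 and 32 counts in mutants, against 1, 0 and 0 counts in controls. The ratio of the summed levels was 165, with an exact 95% interval of 29.2 to 6578 for counting error only (adjusted p = 8.96e-05). Sost passed the count filter only through the mutants, where it was high. Its adjusted p and this interval therefore lend no independent support.

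Type I and type II receptors that passed were all lower in mutants: 3 of 6 type I receptors and 2 of 4 type II receptors fell, and none rose. In each type 50% passed, close to the background of 46.3% (23.5% higher and 22.8% lower), and these are few genes. Acvr1c (chromosome 2, 58267453 to 58357895, minus strand) encodes ALK7, a type I receptor for activin and nodal ligands. Its levels were 9.74, 8.28 and 6.89 CPM in mutants, against 22.4, 22.6 and 24.8 CPM in controls (log2 fold change -1.49, SE 0.13, adjusted p = 1.69e-05). Acvrl1 encodes ALK1, a BMP9 and BMP10 receptor best known from blood vessels. It had 1.97, 2.24 and 1.64 CPM in mutants, against 5.22, 5.46 and 5.49 CPM in controls (log2 fold change -1.47, SE 0.18, adjusted p = 1.45e-04). Neither receptor showed any overlap between groups. Beside this fall, 2 of 7 endothelial markers rose (Pecam1 and Vwf), 5 did not pass, and their sum was 23.1 to 25.5 CPM in mutants and 14.2 to 15.1 CPM in controls. Of those 5, Cdh5, the endothelial cadherin gene, was at 0.649 CPM in mutants and 0.519 CPM in controls. Lyve1 was level (log2 fold change 0.03), while Kdr, Tek and Plvap leaned lower (-0.55, -0.52 and -0.71). The endothelial markers thus did not move together. The part of these cells in the fall of Acvrl1 was not tested.

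Acvr1b, which encodes the activin receptor ALK4, had the highest level per kilobase of the receptors. It stood at 76.4, 80.8 and 75.7 CPM in mutants, against 114.6, 110.1 and 112 CPM in controls (log2 fold change -0.53, SE 0.065, adjusted p = 1.48e-04). Bmpr1a, the main BMP type I receptor of the crypt epithelium, was at 89.8 ± 3.76 CPM in mutants and 102.7 ± 6.24 CPM in controls. Its groups did not overlap, and it missed the threshold (log2 fold change -0.19, SE 0.073, adjusted p = 0.0557), but it passed without mutant 1 (adjusted p = 0.0338) and without control 1 (adjusted p = 0.0325). Tgfbr1 and Acvr1 had log2 fold changes of -0.06 (SE 0.072) and 0.02 (SE 0.096) and did not pass. Among type II receptors, Acvr2b fell to 4.78 ± 0.413 CPM in mutants, against 7.36 ± 1.34 CPM in controls (adjusted p = 0.0137). It lost its call without control 2 (adjusted p = 0.0523) and without mutant 1 and mutant 2 (adjusted p = 0.124). Bmpr2 fell to 59.5 ± 4.58 CPM in mutants, against 74.0 ± 8.496 CPM in controls (log2 fold change -0.31, adjusted p = 0.0229). That call was lost without mutant 2, mutant 3, control 2 or control 3 (adjusted p of 0.0763, 0.0646, 0.0729 and 0.0571), and with mutant 3 as the lone mutant (adjusted p = 0.0607). Tgfbr2, the type II receptor with the highest level per kilobase, had 88.8, 89.0 and 90.8 CPM in mutants, against 93.9, 94.3 and 94.2 CPM in controls. These groups did not overlap, yet the difference was small and not called (log2 fold change -0.07, SE 0.062, adjusted p = 0.367).

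The decoy receptor gene Bambi encodes a receptor-like protein without a kinase domain that dampens TGF-beta and BMP signals. It had 18.6, 17.7 and 18.1 CPM in mutants, against 4.62, 4.42 and 4.07 CPM in controls. Libraries of 1 group were nearly equal and the log2 fold change was 2.05 (SE 0.11), with the smallest adjusted p of any member (8.58e-07). The co-receptor gene Tgfbr3 (adjusted p = 0.653) and Tgfbr3l (adjusted p = 0.130) did not pass. Tgfbr3l shares 52.2% of its exon bases with another annotated gene on the same strand, where reads were not counted, so its level is uncertain.

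SMAD genes changed by less. Smad4, the shared partner and the member with the second highest level per kilobase in controls, had 67.7, 73.4 and 61.3 CPM in mutants, against 104.4, 101.5 and 94.99 CPM in controls (log2 fold change -0.57, SE 0.082, adjusted p = 3.94e-04). Smad3, of the TGF-beta branch, fell as well, with 33.0, 38.3 and 37.1 CPM in mutants, against 45.3, 49.7 and 43.7 CPM in controls (log2 fold change -0.36, SE 0.083, adjusted p = 0.00631). Its partner in that branch, Smad2, had 39.0 ± 0.861 CPM in mutants and 42.9 ± 0.636 CPM in controls and did not pass (adjusted p = 0.104). In the BMP branch Smad5 rose slightly, to 56.3 ± 3.29 CPM in mutants, against 48.6 ± 1.79 CPM in controls (log2 fold change 0.21, adjusted p = 0.0343). That call was lost without mutant 1, mutant 3, control 1 or control 3 (adjusted p of 0.0937, 0.0730, 0.113 and 0.147), and with mutant 3 as the lone mutant (adjusted p = 0.172). Smad1 did not pass (log2 fold change -0.14, SE 0.085, adjusted p = 0.194) but fell without mutant 1 (log2 fold change -0.24, adjusted p = 0.0204). Smad9 was under 1 CPM in both groups.

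Negative regulators inside the cell went both ways. Smad7, the inhibitory SMAD of both branches, had 65.4, 74.8 and 79.9 CPM in mutants, against 54.3, 59.7 and 57.4 CPM in controls (log2 fold change 0.36, SE 0.086, adjusted p = 0.00667). Smad6, the inhibitory SMAD of the BMP branch, rose alike, to 21.9 ± 2.18 CPM in mutants, against 16.5 ± 1.14 CPM in controls (log2 fold change 0.41, SE 0.099, adjusted p = 0.00806). Smurf2, a ubiquitin ligase that marks receptors and SMADs for destruction, fell, with 59.3, 55.4 and 60.9 CPM in mutants, against 77.6, 80.3 and 74.8 CPM in controls (log2 fold change -0.41, SE 0.069, adjusted p = 0.00104). Its relative Smurf1 did not pass (log2 fold change 0.17, adjusted p = 0.0890). Of 22 intracellular regulators in the fixed list of other genes, 6 rose and 8 fell (63.6% called, background 46.3%). Wwp1, a ligase of the same family as Smurf2, fell to 49.3 ± 4.58 CPM in mutants, against 79.7 ± 1.58 CPM in controls (log2 fold change -0.69, SE 0.080, adjusted p = 1.01e-04). Tab1, which links receptors to the kinase TAK1, fell to 21.0 ± 1.66 CPM in mutants, against 32.5 ± 2.68 CPM in controls (log2 fold change -0.63, SE 0.092, adjusted p = 4.22e-04). Pmepa1, a TGF-beta-induced feedback inhibitor, rose to 32.8 ± 5.96 CPM in mutants, against 21.7 ± 1.58 CPM in controls (log2 fold change 0.60, adjusted p = 0.00387). Skil, another TGF-beta-induced inhibitor, stood at 117 ± 18.1 CPM in mutants and 122 ± 6.24 CPM in controls (adjusted p = 0.711).

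**Figure D4:**
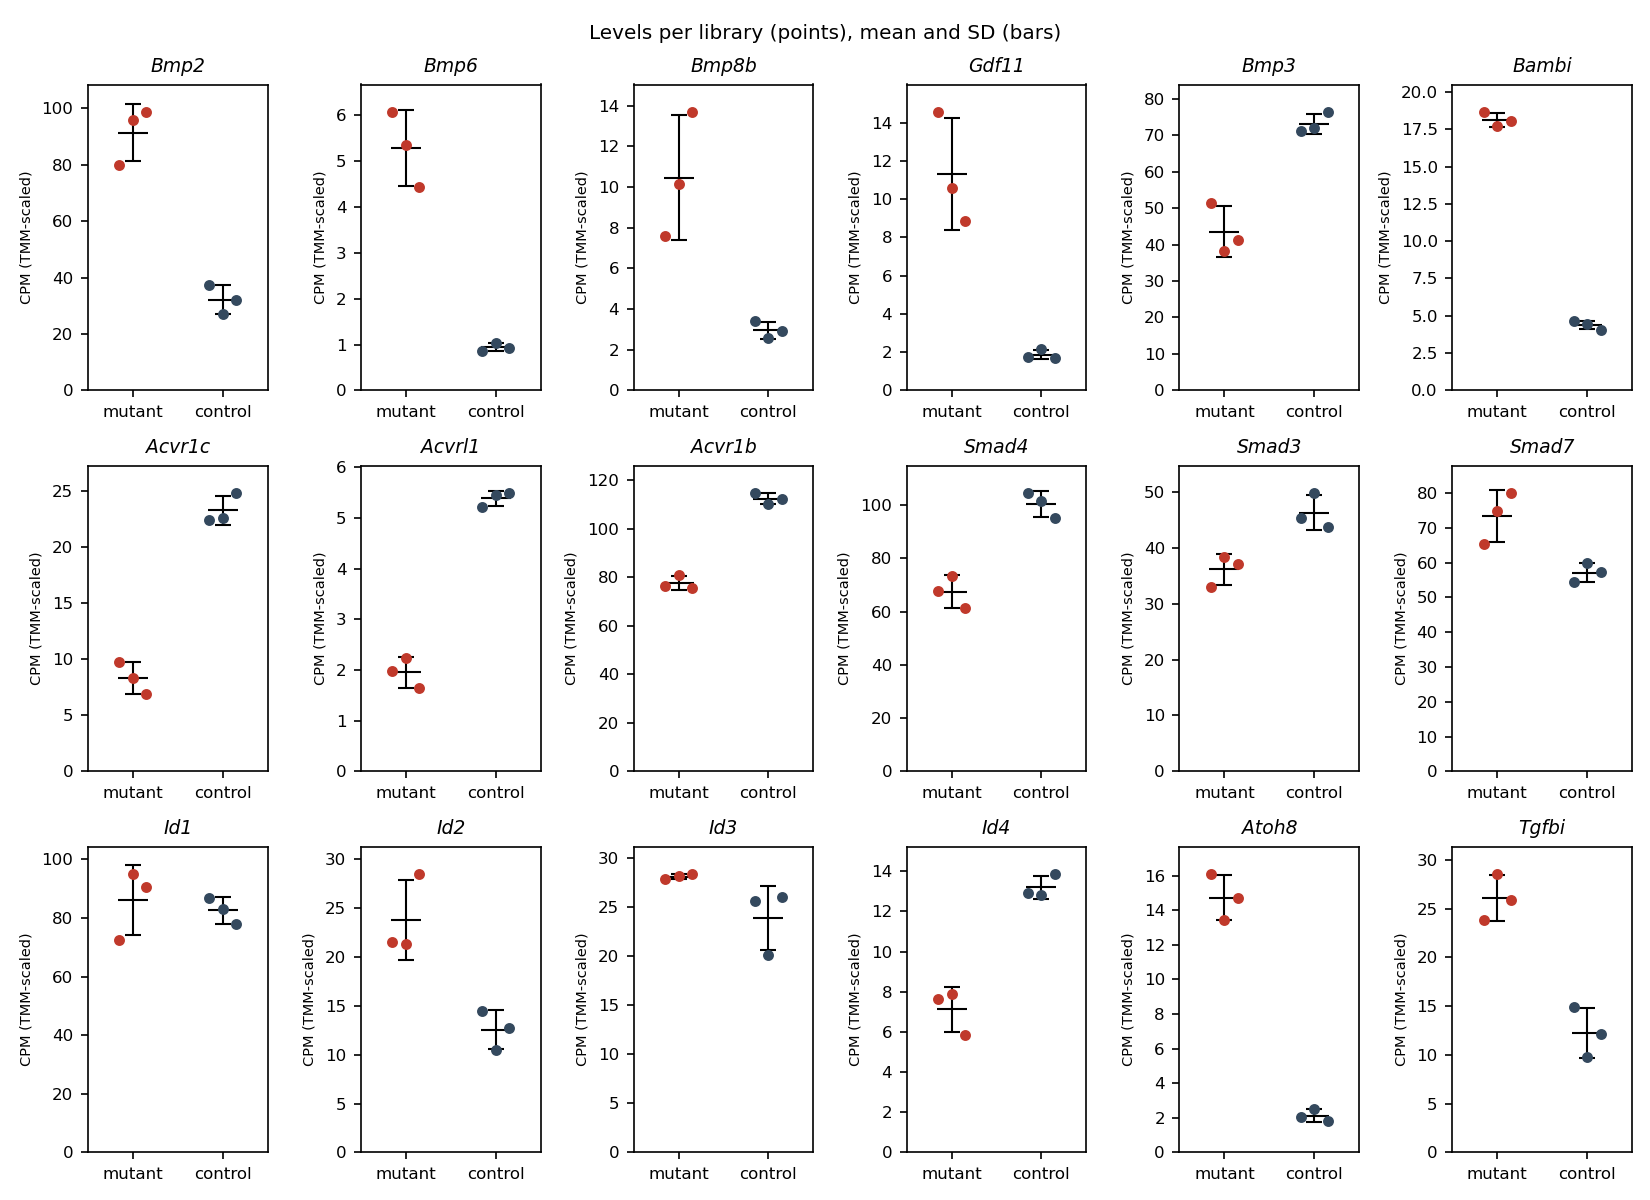
CPM of 17 members and of the target gene Atoh8 in each of 3 mutant and 3 control libraries (points), with mean and SD (bars); each panel has its own axis from 0. Groups are apart for every gene shown except Id1, while the 3 mutant values of Id3 (27.9 to 28.4 CPM) lie just above its controls (20.2 to 26.04 CPM).

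Target genes did not move together. The Id genes encode inhibitors of basic helix-loop-helix factors, and Id1, Id2 and Id3 are textbook targets of BMP SMADs. Id1, the member with the highest level per kilobase, had 72.4, 94.9 and 90.7 CPM in mutants, against 87.0, 83.0 and 77.9 CPM in controls. Its groups overlapped (log2 fold change 0.06, SE 0.10, adjusted p = 0.673). Id3 was at 28.1 ± 0.225 CPM in mutants and 23.9 ± 3.28 CPM in controls and missed the threshold (log2 fold change 0.23, SE 0.10, adjusted p = 0.0871). Id2 rose, with 21.5, 21.3 and 28.5 CPM in mutants, against 14.5, 10.5 and 12.7 CPM in controls (log2 fold change 0.92, SE 0.15, adjusted p = 7.66e-04). Id4 fell, with 7.65, 7.88 and 5.82 CPM in mutants, against 12.9, 12.8 and 13.8 CPM in controls (log2 fold change -0.89, SE 0.14, adjusted p = 5.53e-04). So of 4 genes of 1 family, 1 rose, 1 fell and 2 did not pass. Tgfbi, a secreted matrix protein named for its induction by TGF-beta, had 23.8, 28.5 and 25.9 CPM in mutants, against 14.9, 9.76 and 12.1 CPM in controls (log2 fold change 1.09, SE 0.14, adjusted p = 2.40e-04).

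Of 10 tested targets in the fixed list of other genes 3 rose, 3 fell and 4 did not pass (60% called, background 46.3%). Those that fell were Ccn2, Hes1 and Tsc22d1, by log2 fold changes of -1.47, -0.38 and -0.32 (adjusted p of 0.0133, 0.0307 and 0.0297). With library totals only, Hes1 and Tsc22d1 lost their calls (adjusted p of 0.0861 and 0.109), and Hes1 overlapped between groups. Ccn2 averaged under 1 CPM in both groups. Besides Atoh8, Tbx3 and Klf10 rose, by 0.52 and 0.32 (adjusted p of 0.00170 and 0.00585). Atoh8 (chromosome 6, 72206177 to 72235577, minus strand), a transcription factor gene induced by BMP SMADs in liver and endothelium, had 16.1, 13.4 and 14.7 CPM in mutants, against 2.05, 2.52 and 1.81 CPM in controls (log2 fold change 2.79, SE 0.16, adjusted p = 1.46e-06).

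The 250 bases before the RefSeq start of Id4, which fell, and of Atoh8, which rose, are shown because these targets moved in opposite directions. They are RefSeq sequences on GRCm38.p6, read 5′ to 3′ on the strand of the gene, from a table that held a promoter for 39 of the 54 members and not for Id1. The windows of Id2 and Id3 overlap exons annotated by GENCODE and are not shown. The Id4 window ends 112 bases before the start of the gene as counted, and the Atoh8 window adjoins it. Capitals mark GGCGCC, a short motif tied to SMAD binding, and CAGAC with its reverse complement GTCTG, another, was searched as well, on both strands.
Id4 (chr13:48260866-48261115, plus strand): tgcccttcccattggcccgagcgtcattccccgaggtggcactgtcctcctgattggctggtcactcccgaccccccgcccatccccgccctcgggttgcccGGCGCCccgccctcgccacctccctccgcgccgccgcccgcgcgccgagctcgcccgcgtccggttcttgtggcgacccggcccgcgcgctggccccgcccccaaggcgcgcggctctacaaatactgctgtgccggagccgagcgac
Atoh8 (chr6:72235578-72235827, minus strand): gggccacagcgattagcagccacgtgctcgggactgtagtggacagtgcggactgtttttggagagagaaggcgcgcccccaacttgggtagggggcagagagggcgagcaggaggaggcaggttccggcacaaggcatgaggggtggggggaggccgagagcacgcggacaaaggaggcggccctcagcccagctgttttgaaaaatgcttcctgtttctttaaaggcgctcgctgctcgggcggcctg
The GGCGCC motif occurred once in the Id4 window and not in the Atoh8 window. It was in 9.59% of all 32851 promoter windows of that length. CAGAC or GTCTG occurred in neither window and was in 42.2% of all windows. A match is a run of letters and not a measured binding site.

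The remaining 3 genes carry pathway names for other reasons. Bmp2k, a kinase named for its induction by BMP2, rose to 45.4 ± 5.24 CPM in mutants, against 34.7 ± 2.02 CPM in controls (log2 fold change 0.39, adjusted p = 0.00747). With mutant 3 as the lone mutant it was at 0.19 on the log2 scale and no longer passed (adjusted p = 0.202). Tgfbrap1, a vesicle tethering protein that binds TGF-beta receptors, rose to 54.3 ± 1.71 CPM in mutants, against 46.4 ± 2.72 CPM in controls (log2 fold change 0.22, adjusted p = 0.0263). This call was lost without mutant 2, mutant 3, control 2 or control 3 (adjusted p of 0.0732, 0.0813, 0.104 and 0.101), and with mutant 3 as the lone mutant (adjusted p = 0.106). Tgfb1i1 did not pass (adjusted p = 0.268).

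Leaving out the libraries that stood apart in sex-linked genes changed the count of members called by less than 1.5 times. Without mutant 1, 15 members were higher and 14 lower, where the background was 22.2% and 21.7% (43.9% in all). Without mutant 1 and mutant 2, with a lone mutant library assumed to vary like the controls, 13 were higher and 9 lower, where the background was 16.2% and 17.0% (33.2% in all). In that fit the other pathway genes called lower numbered 11, against 18 with all libraries. All 11 members that changed by at least 2-fold also passed without mutant 1. They were picked in the full fit, which holds the same libraries, so this is no independent test. With mutant 3 as the lone mutant, the log2 fold changes were 1.58 for Bmp2, 2.20 for Bmp6, 2.21 for Gdf11, 2.02 for Bambi, -1.78 for Acvr1c, -1.74 for Acvrl1 and -1.14 for Ltbp3.

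**Figure D5:**
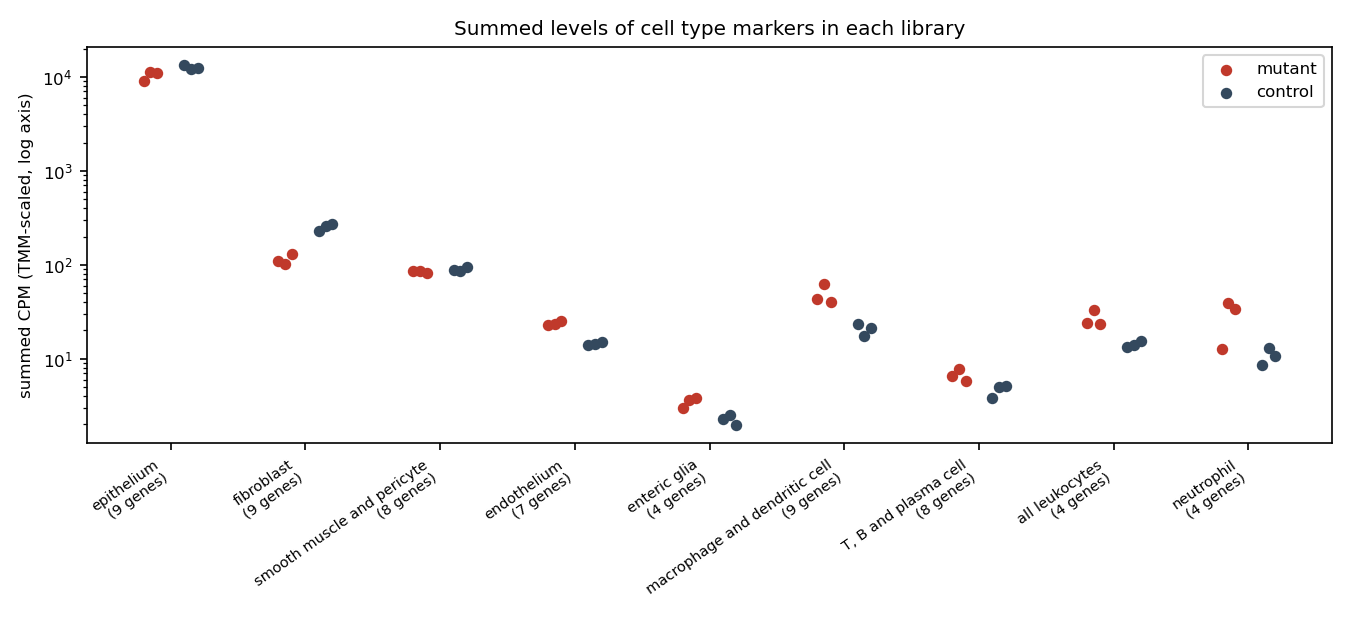
Summed CPM of each list of cell type markers (log axis) in each of 3 mutant and 3 control libraries. The fibroblast sum lies lower in mutants (102 to 129 CPM) than in controls (230.4 to 273.9 CPM). The macrophage and dendritic cell sum lies higher (40.3 to 63.0 CPM in mutants, 17.4 to 23.6 CPM in controls). Single markers of a list can differ from its sum.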

How the data were processed

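Raw counts per gene were deposited, 1 file per library. The submitters' processing notes name STAR 2.6.1d for alignment, GRCm38 as the build and Trim Galore 0.6.5 as trimmer. Per the file headers, featureCounts 1.6.4 counted paired fragments on GENCODE vM25 exons, on the strand of read 1, leaving out reads with several alignments or on several genes. Exon lengths, also deposited in the files, gave CPM per kilobase.

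In R 4.3.3, genes were kept by filterByExpr (minimum count 10, total 15), scaled by TMM and tested 2-sided with the quasi-likelihood F test of edgeR 4.0.16, genotype as the only term, with Benjamini-Hochberg adjustment over all 18539 genes and a threshold of 0.05. The SE is the absolute log2 fold change over the square root of F. Fold changes are mutant minus control. "Rose" and "fell" mean past the threshold. Alternatives, with DESeq2 1.42.0 and limma 3.58.1 among them, are in the closing section.

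Members and lists were chosen with earlier results of these data known. Full values were planned for members changed at least 2-fold and for the 8 other pathway genes with the smallest p. Per role they were also planned for the 2 smallest p and the highest level. Some of these genes, such as Chrd, Bmpr2, Fbn1 and Wwp1, are given as mean and SD only. Tgfbr3l is given by its adjusted p. Itgb6, Thbs1, Furin, Pmepa1, Skil, Twsg1, Fstl3, Nbl1, Htra1, Ccn2, Hes1, Tsc22d1, Tbx3 and Klf10 were chosen after their values were seen. Lists of markers not named in the report moved as follows: of 4 neutrophil markers 4 rose, of 4 enteric glia markers 1 rose, and of 8 T, B and plasma cell markers 1 rose. One member is counted with the others and not reported by name here.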

Additional observations from a re-analysis of the deposited data

How the results depend on the processing

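Across 19 alternatives no member's call changed direction, and 22 of the 28 called members kept their call in all alternatives except the test against a 1.5-fold change; Smad5, Bmpr2, Tgfbrap1, Acvr2b, Bmp2k and Ltbp4 lost it in at least 1 other. Against a 1.5-fold change 14 members passed (10 higher, 4 lower), 9 other pathway genes (5 higher, 4 lower) and 2747 of all genes (1720 higher, 1027 lower; 14.8%). At a threshold of 0.01 the other pathway genes numbered 21, with 8 lower, where the background was 31.7% in all and 15.2% lower; 10 were lower with library totals only, and 11 without mutant 1 and mutant 2. The first 2 settings are stricter by construction and the last has fewer libraries. Library totals moved the median log2 fold change over all genes tested from 0.006 to 0.078. Beyond that the cause was not tested. Leaving out each library in turn gave 25 to 29 members called, 27 to 29 other pathway genes and 7057 to 8571 of all genes (35.7% to 43.9%). DESeq2 called 27 members, and 8178 of the 23537 genes it gave an adjusted p (34.7%). Inhba, Smurf1, Bmpr1a and Smad1 were called in some alternative.

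The labels give both groups replicate numbers 1 to 3. Deviations from the group means correlated at -0.12, -0.0652 and -0.138 for equal numbers, so the numbers do not show which libraries form the 3 pairs of mice of the design, and no other label does. With a replicate block 25 members were called, 27 other pathway genes and 7403 of all genes (39.9%); Smad5, Bmpr2 and Tgfbrap1 lost their calls. Depth limits the members under 1 CPM, whose folds rest on few counts.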
